A study of Mus musculus with 8 samples.

Results

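The 10 apolipoprotein genes Apoa1, Apoa2, Apoa4, Apoa5, Apob, Apoc1, Apoc3, Apoe, Apoh and Apom were described in nanopore direct RNA sequencing libraries of mouse liver. They were chosen by gene symbol, matched to the Ensembl gene identifiers in the deposited tables, and are 10 of the 27453 genes and 25 of the 53983 transcripts listed there. Direct RNA sequencing reads native polyadenylated RNA molecules, so 1 read stands for 1 molecule or the 3′ part of one. The libraries came from C57BL/6JN mice, an inbred strain, and no engineered allele or drug is named in the labels. The O-titled group has 2 males (O1 and O2) and 2 females (O3 and O4), with 12 weeks in the age field. The Y-titled group has 2 males (Y1 and Y2) and 2 females (Y3 and Y4), with 80 weeks in the age field. In the series text young mice are about 2 and old mice about 18 months of age, and the titles and the age field disagree on which set is which. The groups are therefore named by title, each fold change is O-titled over Y-titled, and no direction with age is given. The question of the design is how the liver transcriptome differs between young and old mice.

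Apolipoproteins are the protein part of plasma lipoproteins, the particles that carry cholesterol, triglycerides and phospholipids in the blood, and the liver secretes most of those that are not made in the intestine. Apob is the non-exchangeable scaffold of very low density and low density lipoproteins, and Apoe is the ligand by which liver receptors take up remnant particles. Apoa1 and Apoa2 are the main proteins of high density lipoprotein, Apom carries sphingosine-1-phosphate on it, and Apoa4 travels on chylomicrons and high density lipoprotein. Apoa5 promotes and Apoc3 restrains the hydrolysis of plasma triglycerides by lipoprotein lipase, Apoc1 modulates lipid transfer and receptor uptake, and Apoh binds anionic phospholipids in plasma.

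The 8 libraries held 545171 to 2593200 mapped reads, so a count of 3 reads corresponds to 1.16 to 5.50 CPM, counts scaled to a fixed total of mapped reads. Each member had reads in every library, and all 10 passed the filter on low counts that left 6759 genes for testing. Reads per member and library ran between 55 for Apoa4 in Y2 and 40903 for Apoe in O1. All 10 hepatocyte markers passed the same filter, and of 7 markers of small intestine epithelium, another site of apolipoprotein synthesis, 6 had no read in any library (Vil1, Lct, Sis, Rbp2, Alpi and Cdx2). The remaining marker, Fabp2, passed the filter, with 64.0 to 139 CPM in O-titled and 94.9 to 189 CPM in Y-titled libraries. Mitochondrially encoded transcripts took 6.82% to 7.74% of mapped reads in O-titled and 7.59% to 11.1% in Y-titled libraries, and their part in the differences below was not tested. Each library is a separate animal, so p-values measure the spread between these animals. In bulk liver, fewer cells of a type and less RNA per cell cannot be told apart.

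The 10 genes took 5.93%, 5.21%, 5.35% and 5.68% of the mapped reads of O1 to O4, against 5.68%, 5.78%, 6.58% and 5.67% of those of Y1 to Y4. The means were 5.54% ± 0.325 in O-titled and 5.93% ± 0.436 in Y-titled livers (SD, n = 4 each), and the groups overlapped. By number of reads over all libraries, Apoe ranked 4, Apoa2 5, Apoa1 9 and Apoc1 13 among all genes listed, and Apoa4, the lowest member, ranked 707.

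Per kilobase of transcript, the level was highest for Apoa2 at 27540 ± 2500 CPM per kb (SD, n = 8 libraries) and next for Apoc1 at 17786 ± 1132 CPM per kb. Apoe had 12307 ± 700.2, Apoa1 10181 ± 2714 and Apoc3 7082 ± 1633 CPM per kb. The ranges over libraries of Apoa2, Apoc1 and Apoe did not overlap one another, whereas Apoa1 overlapped both Apoe and Apoc3. Apoh had 1692 ± 204 and Apoa5 506 ± 144 CPM per kb, and Apom, at 434 ± 82.7 CPM per kb, overlapped Apoa5. The lowest levels per kilobase were those of Apob, at 134 ± 11.1, and Apoa4, at 99.6 ± 31.1 CPM per kb, which overlapped each other. The place of Apob near the end of this order comes with its annotated length of 13934 nt, while Apoa2, Apoc1 and Apoc3 have main transcripts under 600 nt. Since 1 read stands for 1 molecule or its 3′ part, reads without division by length are the nearer measure of molecules. By mapped reads alone, Apoe was highest at 15430.5 ± 890 CPM, before Apoa2 at 13822 ± 1263 CPM. Their ranges over libraries overlapped, and in Y4 the order was reversed, at 14285 CPM for Apoe and 15116 CPM for Apoa2. Apob had 1872 ± 155 CPM on that measure, against 181 ± 56.4 CPM for Apoa4 (SD, n = 8).

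The members varied to different degrees between livers. The levels below are TMM-scaled CPM, except the sums of cell type markers. On TMM-scaled CPM the coefficient of variation over 8 livers was 4.22% for Apoc1, 5.34% for Apoe and 31.8% for Apoa4. Apoa5 and Apoa1 followed Apoa4 with 28.8% and 28.4%. The median over the 10 members was 14.3%, against 14.1% over the 727 tested genes with at least the mean level of Apoa4, so the members were about as variable as other abundant transcripts of these livers.

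Between O-titled and Y-titled livers, 0 of 10 members passed an adjusted p of 0.05 in edgeR's quasi-likelihood test with sex as a covariate, whereas 4.01% of all tested genes did. Of the members, 2 had an unadjusted p under 0.05 (Apoa1 and Apom), against 16.2% of all tested genes, and DESeq2 and limma voom each called 0 of 10. All 10 log2 fold changes were below 0, between -0.46 and -0.05 with a median of -0.24. The fold was below 0 for 50.1% of all tested genes and for 59.1% of the 727 abundant ones. The groups overlapped for all 10 members, and 8.71% of tested genes had groups that did not overlap.

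Among the high density lipoprotein genes, Apoa1 had 13146, 9618, 8355 and 5966 CPM in O1 to O4, against 11928, 13929, 14750.2 and 8978 CPM in Y1 to Y4. Its lowest value was in O4 and its highest in Y3, both female, and its log2 fold change was -0.46 ± 0.20 (SE; edgeR quasi-likelihood adjusted p = 0.303). Apom had 334, 313, 447 and 476 CPM in O1 to O4, against 451, 509, 535 and 522 CPM in Y1 to Y4. The males O1 and O2 and the female O3 lay below all Y-titled livers, O3 only just, while O4 lay above Y1. Its log2 fold change was -0.38 with a 95% interval of -0.61 to -0.14, and its adjusted p in edgeR's quasi-likelihood test was 0.0691, the smallest of the 10 members. Apoa2 had 11395 to 14401 CPM in O-titled livers, against 13273.5 to 15586 CPM in Y-titled livers, with a log2 fold change of -0.16 ± 0.11 (SE; edgeR adjusted p = 0.558).

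Of the triglyceride regulators, Apoa5 had 1115, 1138, 869.9 and 1119 CPM in O1 to O4, against 1272, 911, 1907 and 1654 CPM in Y1 to Y4. Both Y-titled females were far above the other livers, and the Y-titled male Y2 lay below 3 of the O-titled livers. Its log2 fold change was -0.40 ± 0.19 (SE; edgeR quasi-likelihood adjusted p = 0.339), and it moved to -0.23 without O3 (0.568), -0.28 without Y3 (0.564) and -0.57 without Y2, where alone of the 8 it passed (0.0386). Apoc3 had 3373, 3809, 2524 and 4083 CPM in O1 to O4, against 3847, 3512, 5416 and 5009.5 CPM in Y1 to Y4, again with its highest values in the Y-titled females. Its log2 fold change was -0.35 ± 0.16 (SE; edgeR adjusted p = 0.309). Apoa4 had 170.3, 163, 174 and 153 CPM in O1 to O4, against 239, 109, 300.4 and 169.6 CPM in Y1 to Y4, so that the Y-titled livers lay on both sides of the O-titled ones, and its edgeR adjusted p was 0.643.

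The most even members were the receptor ligand Apoe and its neighbour Apoc1. Apoe had 15722.5, 14871, 15017 and 16023 CPM in O1 to O4, against 16676.5, 16985, 16113 and 14721.5 CPM in Y1 to Y4. The log2 fold change of Apoe was -0.06 with a 95% interval of -0.28 to 0.15 and that of Apoc1 was -0.05 with an interval of -0.26 to 0.16 (edgeR adjusted p = 0.832 and 0.876). Apob had 1754, 1894, 1989 and 1726 CPM in O1 to O4, against 2018, 2304, 1859 and 1779 CPM in Y1 to Y4, with an interval of -0.34 to 0.13 on the log2 scale. The interval of Apoh was -0.30 to 0.17 on the same scale.

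**Figure D1:**
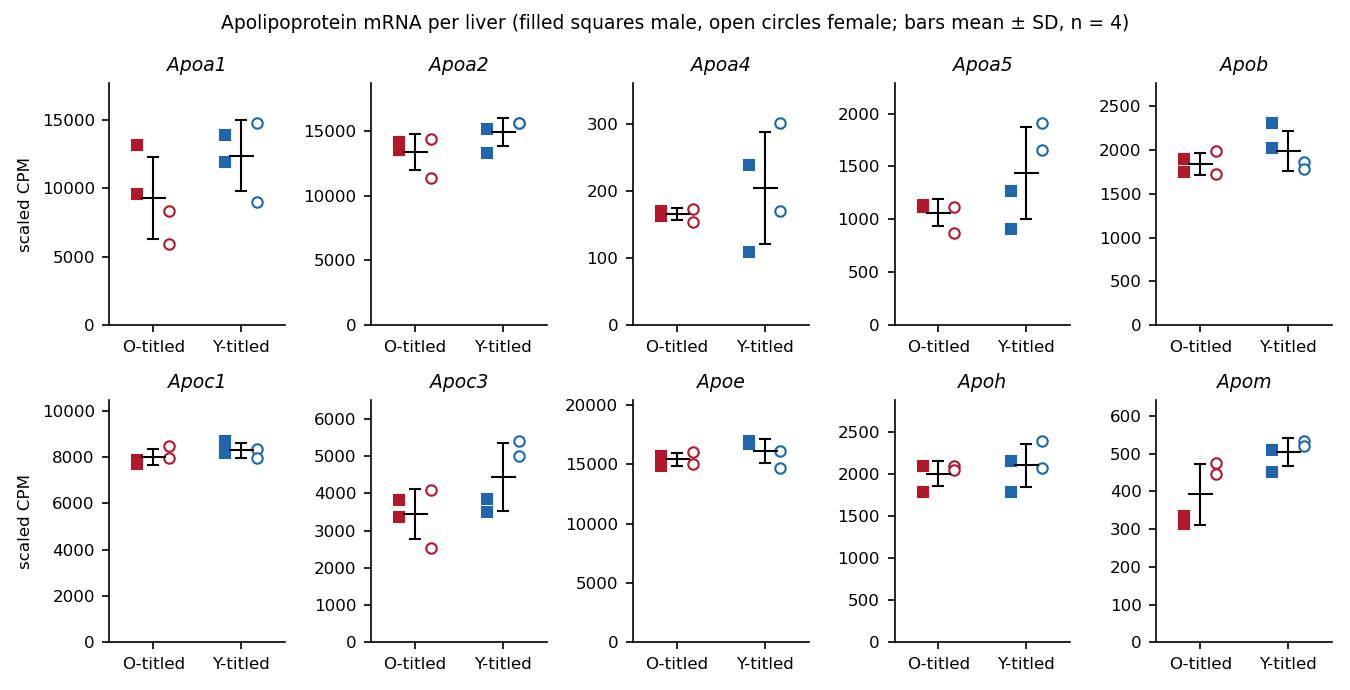
TMM-scaled CPM of the 10 apolipoprotein genes in each liver, O-titled left and Y-titled right, with males as filled squares, females as open circles and bars for the mean ± SD of 4 livers. The groups overlap in every panel, Apoc1 and Apoe are the most even, and the 2 Y-titled females stand highest for Apoa5 and Apoc3.

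The title difference was then taken within each sex, in a fit of 4 groups of 2 animals that share 1 estimate of spread. In females, 2 of 10 members fell in O-titled livers and 0 rose, in edgeR's quasi-likelihood test, against 5.47% of tested genes called in either direction and 2.74% called lower. Apoa5 had 869.9 and 1119 CPM in O-titled females and 1907 and 1654 CPM in Y-titled females, a fold of 0.559 with a 95% interval of 0.437 to 0.715 (edgeR adjusted p = 0.00493). Apoc3 had 2524 and 4083 CPM in O-titled females and 5416 and 5009.5 CPM in Y-titled females, a fold of 0.634 with an interval of 0.485 to 0.828 (edgeR adjusted p = 0.0454). The call of Apoa5 was lost without O3 (adjusted p = 0.0752) and without Y3 (0.0878), and kept without any of the other 6 libraries. The call of Apoc3 was kept only without O4, with edgeR adjusted p-values of 0.0595 without O1, 0.0627 without O2, 0.404 without O3, 0.0728 without Y1, 0.0695 without Y2, 0.288 without Y3 and 0.158 without Y4. Apoa1 had 8355 and 5966 CPM in O-titled females and 14750.2 and 8978 CPM in Y-titled females, and did not pass (edgeR adjusted p = 0.251). Its log2 fold change in females ran from -1.03 to -0.33 when 1 library was left out, with adjusted p-values up to 0.659, and passed in that set only without Y4 (0.0302). With the replicate number as a block Apoa1 passed in females (edgeR adjusted p = 0.0354) and Apoc3 did not (0.0531), nor did Apoc3 pass in DESeq2 (0.0716), in limma voom (0.0598) or at equal depth (0.0774), while Apoa5 passed in all 4 of these.

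In males, 0 of 10 members passed in edgeR's quasi-likelihood test, against 1.26% of tested genes, and 1 (Apom) had an unadjusted p under 0.05, against 9.45% of tested genes. Apom had 334 and 313 CPM in O-titled males and 451 and 509 CPM in Y-titled males, a log2 fold change of -0.56 ± 0.14 (SE; edgeR adjusted p = 0.0585). That p passed without O3 (0.0462) and without O4 (0.0456), both female livers that enter only through the scaling, the genes tested and the shared spread. Apoa5 differed in males by 0.04 and Apoc3 by -0.04 on the log2 scale, with 95% intervals of -0.31 to 0.40 and -0.42 to 0.35.

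Whether the title difference depended on sex was tested directly. For 0 of 10 members did the difference between the sexes pass in edgeR's quasi-likelihood test, against 0.385% of tested genes, and 2 members had an unadjusted p under 0.05, against 8.46% of tested genes. Apoa5 had the largest such difference of the 10, at -0.88 ± 0.24 on the log2 scale for females minus males (SE; edgeR adjusted p = 0.159). Apoc3 had -0.62 ± 0.26 (SE; edgeR adjusted p = 0.507). A dependence on sex was thus not established for either gene, although the call was made in females alone. With no filter on low counts the Apoa5 difference passed (edgeR adjusted p = 0.0123).

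**Figure D2:**
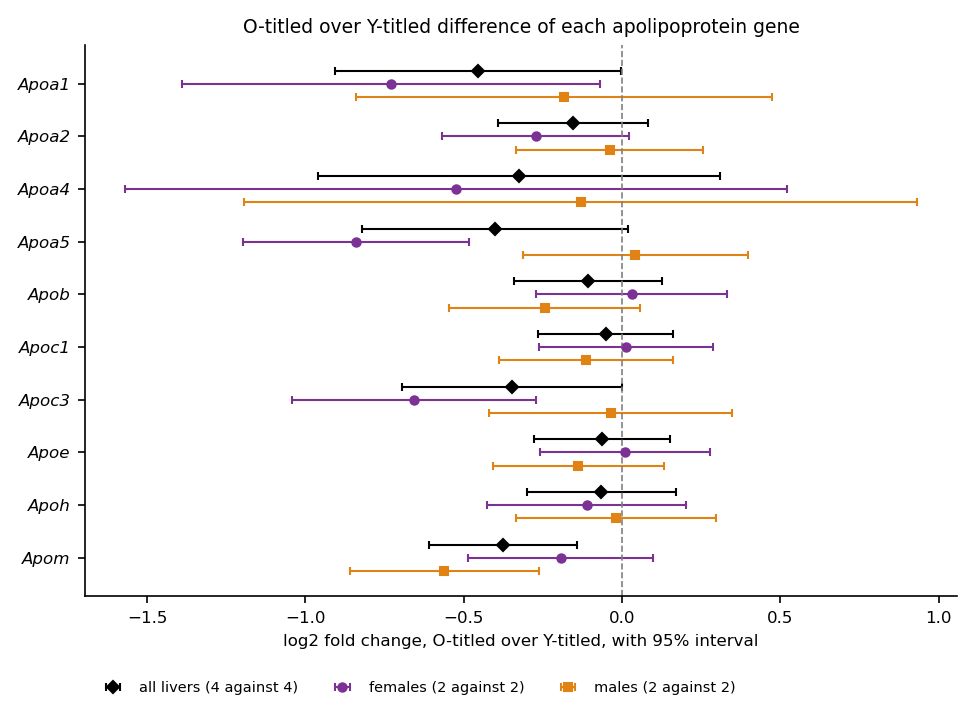
Log2 fold change, O-titled over Y-titled, of each apolipoprotein gene with its 95% interval from edgeR, over all livers (4 against 4), in females and in males (2 against 2 each). The intervals of Apoa1, Apoa5 and Apoc3 lie below 0 in females and span 0 in males, while those of Apoe and Apoc1 span 0 in each fit.

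Apoa5 and Apoc3 lie in 1 gene cluster. Apoa1 (chr9:46228580-46230466, plus strand), Apoc3 (chr9:46232933-46235636, minus), Apoa4 (chr9:46240696-46243459, plus) and Apoa5 (chr9:46268633-46271919, plus) occupy 43.3 kb of mm10. In females all 4 genes of the cluster had a log2 fold change below 0, at -0.73 for Apoa1, -0.66 for Apoc3, -0.52 for Apoa4 and -0.84 for Apoa5, and the values of Apoa1 and Apoa4 did not pass. The values nearest 0 with 1 library left out were -0.33 for Apoa1, -0.34 for Apoc3, -0.055 for Apoa4 and -0.66 for Apoa5. In females 50.8% of all tested genes and 56.3% of the 727 abundant ones had a fold below 0. The other cluster, Apoc1 (chr7:19689481-19692660, minus) and Apoe (chr7:19696109-19699188, minus), had 0.01 for both genes. Of the genes outside a cluster, Apoa2 (chr1:171225054-171226379, plus) had -0.27, Apom (chr17:35128997-35132050, minus) -0.19, Apoh (chr11:108343354-108414396, plus) -0.11 and Apob (chr12:7977648-8016835, plus) 0.03.

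The promoter windows of Apoa1, Apoa4 and Apoa5 are printed because Apoa5 was called in females and the other 2 are its neighbours in the cluster. RefSeq windows on GRCm38.p6, the assembly of mm10, hold 250 bases before and 50 after an annotated start. They were matched for 8 of the 10 members with 12 windows, and not for Apoc1 and Apoc3. Capitals mark TATAAA, the core of the TATA element, and CACGTG, an E-box. They also mark 2 nuclear receptor half-sites, searched as AGGTCA and as GGGTCA. All 4 motifs were searched on both strands, and no match overlapped another in the printed windows. The windows are chr9:46228380-46228679 for Apoa1, chr9:46240594-46240893 for Apoa4 and chr9:46268383-46268682 for Apoa5, all on the plus strand.
Apoa1: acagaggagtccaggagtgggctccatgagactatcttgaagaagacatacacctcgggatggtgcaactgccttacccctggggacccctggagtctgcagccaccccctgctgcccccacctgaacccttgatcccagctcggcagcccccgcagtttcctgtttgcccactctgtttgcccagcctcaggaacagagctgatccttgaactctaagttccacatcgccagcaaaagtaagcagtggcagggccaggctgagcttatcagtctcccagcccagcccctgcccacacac
Apoa4: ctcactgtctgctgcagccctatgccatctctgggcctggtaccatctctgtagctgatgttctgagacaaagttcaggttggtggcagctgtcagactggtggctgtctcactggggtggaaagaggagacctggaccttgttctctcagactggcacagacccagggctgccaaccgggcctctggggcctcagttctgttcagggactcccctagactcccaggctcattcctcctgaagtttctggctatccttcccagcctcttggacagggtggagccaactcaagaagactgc
Apoa5: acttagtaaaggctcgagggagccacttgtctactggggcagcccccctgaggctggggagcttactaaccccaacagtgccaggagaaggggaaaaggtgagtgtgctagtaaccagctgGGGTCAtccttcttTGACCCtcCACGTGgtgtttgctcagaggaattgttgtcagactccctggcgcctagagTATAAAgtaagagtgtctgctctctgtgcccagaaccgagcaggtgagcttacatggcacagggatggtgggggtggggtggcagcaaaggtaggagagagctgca
The Apoa5 window held a TATAAA, 1 CACGTG and 2 GGGTCA, of which 1 reads TGACCC because it lies on the other strand. The TATAAA begins 56 bases before this start and 31 bases before another RefSeq start of Apoa5. The windows of Apoa1 and Apoa4 held none of the 4 motifs, which says only that these letters are not in these bases. Both windows are set on RefSeq starts that lie inside the transcript to which all reads of the gene were assigned. The RefSeq start is 46228630 for Apoa1, while Apoa1-201 begins at 46228580. For Apoa4 it is 46240844, while Apoa4-201 begins at 46240696. The printed Apoa5 window is set on 46268633, where Apoa5-202 begins. Apoa5-201, with 49.5% of Apoa5 reads, begins at 46269078, beyond the end of that window. Over 32851 RefSeq windows of this length, 13.6% held TATAAA, 7.15% CACGTG, 13.7% GGGTCA and 16.3% AGGTCA. Elsewhere among the members, the Apob window held 1 TATAAA, the Apom window 2 GGGTCA, the Apoh window 1 AGGTCA and the Apoa2 windows 1 TATAAA and 1 AGGTCA.

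Between females and males, over both title groups, 0 of 10 members passed in edgeR's quasi-likelihood test, against 2.96% of tested genes, and 1 (Apom) had an unadjusted p under 0.05, against 12.3% of tested genes. DESeq2 and limma voom also called 0 of 10. Apom had 447, 476, 535 and 522 CPM in females, against 334, 313, 451 and 509 CPM in males, with a log2 fold change of 0.33 and a 95% interval of 0.09 to 0.56 (edgeR adjusted p = 0.161). Its 2 highest livers were the Y-titled females and its 2 lowest the O-titled males. Apoa1 had 5966 to 14750.2 CPM in females and 9618 to 13929 CPM in males, with a log2 fold change of -0.40 ± 0.20 (SE; edgeR adjusted p = 0.499), and passed without Y3 (adjusted p = 0.0417). The other 8 members had log2 fold changes between -0.11 for Apob and 0.26 for Apoa5, each with an interval that included 0.

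The reads of 5 members were assigned to a single transcript each (Apoa1-201, Apoa4-201, Apob-202, Apoh-201 and Apom-201), and the other 5 had several. Apoe reads were assigned to 4 transcripts with at least 5% of them, 43.3% to Apoe-206, 36.0% to Apoe-201, 11.1% to Apoe-209 and 9.48% to Apoe-205. These 4 have the same 933 coding bases and differ in their untranslated ends: Apoe-206 begins farthest upstream and extends 163 nt past the 3′ end of the others, and Apoe-205 begins inside the first intron of Apoe-206. Per library, Apoe-206 took 43.9%, 41.8%, 43.3% and 43.8% of Apoe reads in O1 to O4, against 43.3%, 40.8%, 43.9% and 42.7% in Y1 to Y4. Apoe-201 took 34.5% to 36.4% in O-titled and 35.6% to 40.0% in Y-titled livers, with the high value in Y2. The shares thus kept their order in all 8 libraries, and Y2, the shallowest library, had the highest share of Apoe-201.

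The RefSeq windows at the starts nearest those of Apoe-206 and Apoe-205 are printed because these 2 transcripts differ in their annotated start. They are chr7:19699139-19699438 and chr7:19698349-19698648 on the minus strand.
Apoe, upstream start: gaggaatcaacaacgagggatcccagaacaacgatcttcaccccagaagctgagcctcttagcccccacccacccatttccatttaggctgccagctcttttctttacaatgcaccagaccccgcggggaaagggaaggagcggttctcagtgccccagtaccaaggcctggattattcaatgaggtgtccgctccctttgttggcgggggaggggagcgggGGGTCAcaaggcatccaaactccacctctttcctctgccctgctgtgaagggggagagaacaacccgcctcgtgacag
Apoe, start inside intron: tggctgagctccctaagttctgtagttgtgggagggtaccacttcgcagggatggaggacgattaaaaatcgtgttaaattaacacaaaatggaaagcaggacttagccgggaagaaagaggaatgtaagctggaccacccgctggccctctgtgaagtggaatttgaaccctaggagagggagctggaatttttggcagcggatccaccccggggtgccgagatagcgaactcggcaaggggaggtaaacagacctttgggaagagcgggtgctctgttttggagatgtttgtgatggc
The upstream window held 1 GGGTCA, 28 bases before the start, and the other held none of the motifs. A further RefSeq window of Apoe, chr7:19698572-19698871, held 2 TATAAA that overlap on opposite strands.

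Apoa2 reads were shared between Apoa2-204 (47.4%) and Apoa2-201 (44.0%), which have the same 306 coding bases and differ in the 5′ untranslated part. Apoa5 reads were split about evenly, with 50.3% to Apoa5-202 and 49.5% to Apoa5-201. Apoc1-201 took 83.3% and Apoc1-202 16.6% of Apoc1 reads. Apoc3-201 took 89.8% and Apoc3-203 10.1% of Apoc3 reads. In the annotation only this pair differed in coding sequence, with 297 coding bases in Apoc3-201 and 411 in Apoc3-203. The share of Apoc3-203 was 10.5%, 11.4%, 10.6% and 9.76% in O1 to O4, against 10.5%, 9.47%, 8.85% and 10.2% in Y1 to Y4, with overlapping groups.

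No shift in transcript use between O-titled and Y-titled livers was found for these genes. In edgeR's test of differential transcript use, 0 of 5 members passed, against 0.00% of the 1236 genes tested, and 10 of those genes and no member had an unadjusted p under 0.05. The smallest unadjusted p of a member was 0.931, for Apoa5. The assignment itself has limits that the reads show. Apoa5-202 and Apoa5-201 share 2309 nt from their 3′ end, while the median read on them was 1358 to 1700 nt per library. Apoe-209 and Apoe-205 share 1067 nt from the 3′ end, while the median read was 912 to 1007 nt on Apoe-209 and 876 to 958 nt on Apoe-205. For Apoe-201 the median was 1159 to 1167 nt, more than its annotated 1128 nt, so this length does not show how far along the transcript the read reached. Apoe-206 extends 163 nt past the 3′ end of the others and then shares 1067 nt with them. The median read on Apoe-206 was 1133 to 1158 nt, which from its 3′ end stops within the shared stretch and short of its upstream start. Apoc3-203 extends 118 nt past the 3′ end of Apoc3-201 and then shares 485 nt with it. The median read was 515 to 551 nt on Apoc3-203, which from its 3′ end stops within the shared stretch. How reads that match several transcripts were assigned is not given in the sources used here.

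**Figure D3:**
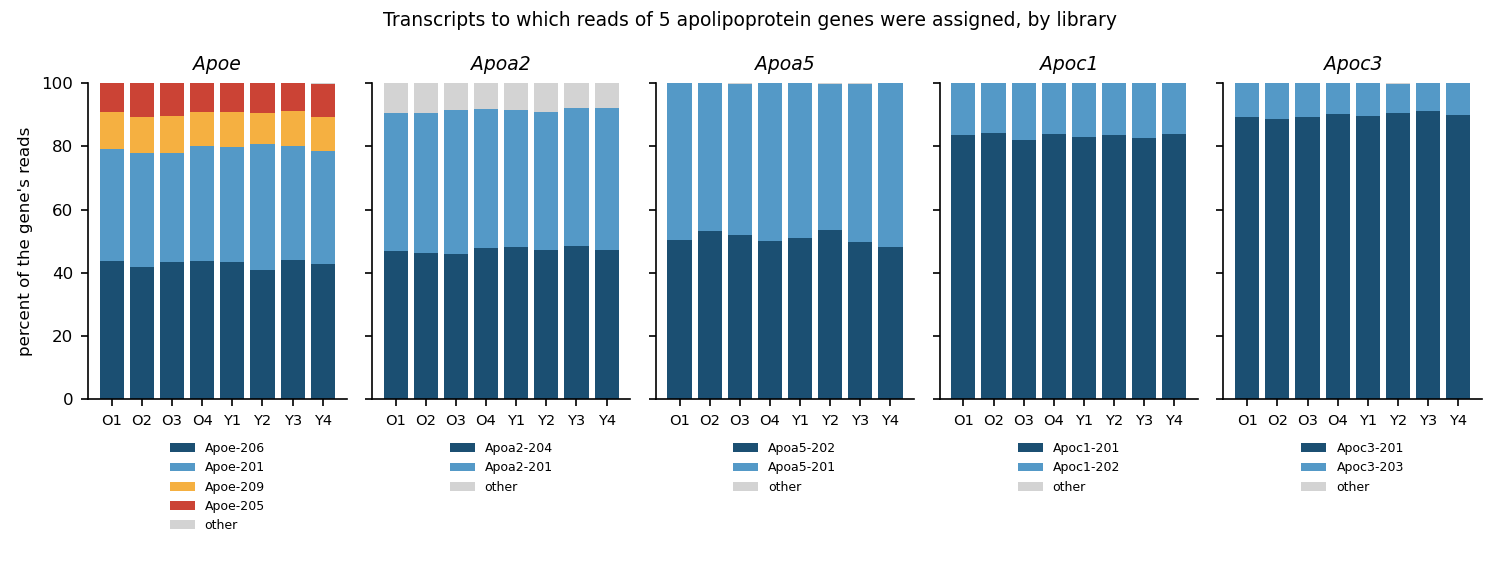
Percent of the reads of 5 apolipoprotein genes assigned to each transcript with at least 5% of them, per library, O1 to O4 left and Y1 to Y4 right, with the remaining transcripts in grey. The order of the transcripts is the same in every library for Apoe, Apoa2, Apoc1 and Apoc3, and the 2 Apoa5 transcripts take 46.3% to 53.5% each.

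Read length followed transcript length, with Apob at the far end. For short transcripts the mean read exceeded the annotated length, at 109% ± 0.315 of it for Apoa2, 106% ± 0.654 for Apoc3 and 105% ± 0.569 for Apoc1 (SD, n = 8). Single reads reached 3932 nt for Apoa2 in O1, 3729 nt for Apoc3 in O1 and 4087 nt for Apoa1 in Y2. Read length is thus not the stretch of transcript covered. Whether the deposited read lengths include the poly(A) tail or adapter is not given in the sources used here. The mean read as a share of annotated length was 87.6% ± 1.81 for Apoh, 84.4% ± 1.38 for Apoa1, 80.6% ± 1.86 for Apoe and 77.3% ± 1.01 for Apom. It was 69.0% ± 1.74 for Apoa4 in O-titled and 71.0% ± 2.12 in Y-titled libraries (SD, n = 4 each), and 58.1% ± 1.58 for Apoa5 over all 8. These 2 are the members with the longest transcripts after Apob.

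Apob-202, with 29 exons and 13934 nt, of which 13515 nt are coding, had a mean read of 14.5% ± 1.03 of its length (SD, n = 8). The 72 genes longer than 10000 nt with enough reads had a median of 14.5%, so Apob was read like other transcripts of its size. The median was 105% for 130 genes under 600 nt, 85.8% for 1258 genes of 600 to 1500 nt and 66.0% for 2423 genes of 1500 to 3000 nt. The longest Apob read was 13310 nt, 12372 nt, 11323 nt and 13355 nt in O1 to O4, against 12336 nt, 12069 nt, 13864 nt and 11427 nt in Y1 to Y4, so single reads were as long as most of the transcript in both groups. Direct RNA reads start at the 3′ end, so a read of the mean length covers only the last part of the Apob coding sequence.

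The mean Apob read was 1969 nt, 1981 nt, 1756 nt and 2024 nt in O1 to O4, against 1963 nt, 2184 nt, 2190.2 nt and 2123 nt in Y1 to Y4. The group means were 1932 ± 120.3 nt in O-titled and 2115 ± 106 nt in Y-titled livers (SD, n = 4 each), a difference of -183 nt with an exact two-sided permutation p of 0.114 and 0.457 after adjustment over the 10 members. O3 had the shortest reads, and Y1 lay among the O-titled livers. Divided by the mean length of all reads of the same library, the difference was -0.12, with an exact p of 0.0571 (adjusted 0.571). The mean over all reads was 1185 ± 31.0 nt in O-titled and 1207 ± 32.9 nt in Y-titled libraries (exact permutation p = 0.286). With 70 assignments of 4 against 4 the smallest p that can be reached is 0.0286. After adjustment over the 10 members a single member at that p would have 0.286, and 6 members would have to reach it together to pass, so that 0 members passed says little. In nt all 10 differences were below 0, down to -183 for Apob, but relative to the library 5 were below and 5 above 0.

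**Figure D4:**
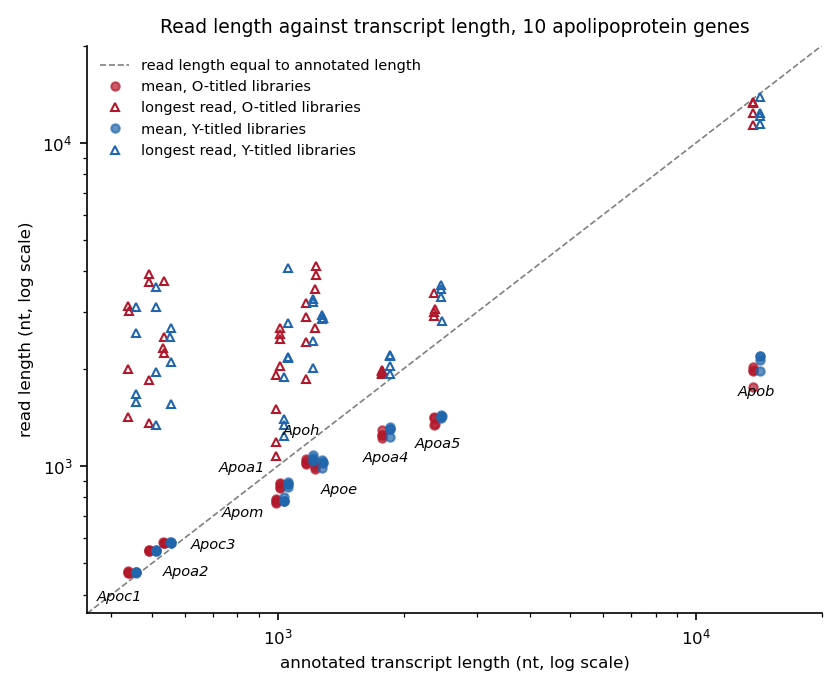
Mean read length (filled circles) and longest read (open triangles) of each apolipoprotein gene in each library against annotated transcript length in nt, on log axes, with O-titled libraries left of Y-titled ones and a dashed line where the read and transcript lengths are equal. The means of Apoa2, Apoc1 and Apoc3 lie on or just above the line, and the mean of Apob lies far below it while its longest reads approach it.

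Lists of genes that act with the apolipoproteins were set beside the members. Of 16 other apolipoproteins 13 were tested, and 0 passed in edgeR's quasi-likelihood test between O-titled and Y-titled livers, with 5 at an unadjusted p under 0.05, where 16.2% of all tested genes were, and a median log2 fold change of 0.33. Of 14 tested genes of lipoprotein assembly and secretion 0 passed, with 3 at an unadjusted p under 0.05 and a median of 0.08. The median over all tested genes was -0.001, so the members, at -0.24, lay below it and the other apolipoproteins above it. Mttp, the transfer protein that lipidates Apob, averaged 145 ± 22.7 CPM in O-titled livers, against 190.4 ± 32.6 CPM in Y-titled livers (SD, n = 4 each; edgeR adjusted p = 0.134).

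Over all tested genes, 2.09% were called higher and 1.92% lower in O-titled livers. Of 3 tested genes of Apob mRNA editing, 1 rose and 0 fell. Rbm47, an RNA-binding cofactor of that editing, averaged 30.6 ± 3.52 CPM in O-titled livers, against 17.2 ± 1.64 CPM in Y-titled livers, a log2 fold change of 0.82 ± 0.19 (SE; edgeR adjusted p = 0.0202). That call was lost without O3 (0.0536), Y1 (0.0648), Y3 (0.0693) or Y4 (0.0641), and in DESeq2 (0.146). Apobec1, the deaminase, had 45 reads in O-titled and 39 in Y-titled libraries and was not tested.

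Of 8 tested lipoprotein receptor genes, 1 rose and 0 fell. Lrp1, a remnant receptor, averaged 228 ± 33.6 CPM in O-titled livers, against 166 ± 20.7 CPM in Y-titled livers (edgeR adjusted p = 0.0429). Its call was lost without O2 (0.113), O3 (0.0780), O4 (0.0874), Y1 (0.126), Y3 (0.0763) or Y4 (0.178), and with the replicate block (0.0661).

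Of 14 tested genes of plasma lipases, transfer proteins and their regulators, 0 rose and 3 fell. Angptl4, an inhibitor of lipoprotein lipase, averaged 53.7 ± 15.9 CPM in O-titled livers, against 146 ± 41.8 CPM in Y-titled livers, a log2 fold change of -1.50 ± 0.19 (SE; edgeR adjusted p = 0.000194). Creb3l3, a transcription factor that induces Apoa4 and Apoa5 in mouse liver, averaged 135 ± 16.6 CPM in O-titled livers, against 204 ± 7.94 CPM in Y-titled livers (edgeR adjusted p = 0.00762). The calls of both genes were kept without any 1 of the 8 libraries. Pla2g12b, a protein of the secretory pathway needed for triglyceride-rich particles, averaged 47.1 ± 10.4 CPM in O-titled livers, against 74.1 ± 8.07 CPM in Y-titled livers (edgeR adjusted p = 0.0262). Its call was lost without O2 (0.0637), O4 (0.114), Y1 (0.0631), Y2 (0.0506), Y3 (0.0901) or Y4 (0.0839), and with the replicate block (0.0519).

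Of 22 tested transcription factors of apolipoprotein genes, 1 rose and 0 fell. Srebf1, the lipogenic factor, averaged 297 ± 68.3 CPM in O-titled livers, against 88.9 ± 24.4 CPM in Y-titled livers, a log2 fold change of 1.76 ± 0.12 (SE; edgeR adjusted p = 2.39e-07), kept without any 1 library. Between females and males, 1 list gene rose, the secretion factor Tm6sf2, and 1 fell, Srebf1 (edgeR adjusted p = 0.0362 and 0.00867), while 1.81% of tested genes were called higher and 1.15% lower in females. The call of Tm6sf2 was lost without O2 (0.0717), O3 (0.0833), Y1 (0.198), Y2 (0.0794), Y3 (0.0913) or Y4 (0.117). The lists hold 4 to 22 genes and were not compared with the members by a test.

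Markers of other liver cells were measured in the same libraries, since macrophages also express Apoe. Their sums are CPM of mapped reads without TMM scaling. The 12 Kupffer cell and macrophage markers summed to 1511, 540.4, 1631 and 1216 CPM in O1 to O4, against 635 to 795 CPM in Y-titled livers. Of the 11 tested 0 passed, with a median log2 fold change of 0.49. Apoe, at 15722.5 TMM-scaled CPM in O1 and 15017 in O3, the livers with the highest macrophage sums, lay within the range of the other 6 livers. Of 10 hepatocyte markers 0 rose and 1 fell (Ahsg), and they summed to 86496 to 116283 CPM in O-titled livers, against 81200.4 to 130727 CPM in Y-titled livers. Of 8 tested stellate cell markers 1 rose (Dcn), with sums of 339.6 to 464 CPM in O-titled and 264 to 401 CPM in Y-titled livers, and of 9 tested sinusoidal endothelial markers 1 rose (Fcgr2b), with sums of 324 to 418 CPM in O-titled and 244 to 399 CPM in Y-titled livers. The part of cell composition in the member levels was not tested.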

How the data were processed

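The deposited tables, 1 per library, hold whole-number read counts per transcript with no normalization, and, per the file headers, the other values of each transcript are lengths of the reads assigned to it. Per the labels' protocols, poly(A) RNA was selected, a 5′ adapter ligated and MinION flow cells used. The submitters' processing notes name minimap2 2.24, DESeq2 and mm10 without saying what DESeq2 was used for. The counting tool and annotation release are not given in the sources used here. Transcript counts were summed to genes, and coordinates and transcript structures were taken from GENCODE M21 on mm10.

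Genes were tested with edgeR 4.0.16 (R 4.3.3; quasi-likelihood, TMM scaling, filterByExpr with a minimum count of 10, sex as covariate, Benjamini-Hochberg over 6759 genes), within each sex in a fit of 4 groups, and transcript use with edgeR's diffSpliceDGE. SEs and 95% intervals come from these fits. Read lengths were compared by exact permutation (scipy 1.17.1), adjusted over the 10 members. The gene and transcript tests were tested on simulated counts. Alternatives were DESeq2 1.42.0, limma 3.58.1 voom, DESeq2 size factors, scaling without the members, no filter, the main transcript alone, equal depth (thinned to the shallowest library), no covariate, a replicate block and leaving out each library.

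All 10 members are named, list genes where they passed the O over Y test, and Mttp, Apobec1 and Tm6sf2, which lie outside that rule, were chosen after their values were seen. Members and lists were chosen with earlier results of these data known, and 2 list genes are left out of the lists and their counts and not reported here. No member passed in the comparisons over all livers, so no genes of like pattern were named. Same-numbered libraries share their sex. Their deviations from the group means correlated at 0.308 to 0.543 over genes, and after removing the sex means at -0.122 and -0.0105. Replicates differed beyond sampling noise (chi-square over degrees of freedom 3.92 to 10.3). Intervals cover the spread between animals, and the floor of 3 reads covers counting error only.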

Additional observations from a re-analysis of the deposited data

Results flagged for a closer look

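In 5 of the 66 groups of 4 values examined, 1 library stood apart from the other 3 by Dixon's test, and chance flags about 1 in 20 groups. Apoa5 was at 869.9 CPM in O3, against 1115 to 1138 CPM in the other O-titled livers. The call of Apoa5 in females was lost without O3, and also without Y3. The members took 6.58% of the mapped reads of Y3, against 5.67% to 5.78% in the other Y-titled livers. The mean Apom read was 801 nt in Y2, against 779.8 to 781 nt in Y1, Y3 and Y4. Apoe-209 took 10.7% of Apoe reads in O4, against 11.5% to 11.6% in the other O-titled libraries. Apoa2-201 took 44.9% of Apoa2 reads in Y4, against 43.3% to 43.6% in Y1, Y2 and Y3.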

How the results depend on the processing

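Over all livers, 271 genes were called between O-titled and Y-titled and 200 between females and males. With no filter on low counts the counts were 600 and 401, and at equal depth 144 and 121. Without sex as covariate 134 genes were called between the titles, and with the replicate block 184. The block changed the call of no member over all livers. With no filter Apoa1 (edgeR adjusted p = 0.0139), Apoa5 (0.0181), Apoc3 (0.0307) and Apom (0.0441) passed between the titles, each with a fold below 0, and Apoa1 passed in females (0.000559) and Apom in males (0.0266). Without that filter 211 genes were called in males, against 85 with it, and 100 for the difference between the sexes, against 26. Alternatives within each sex other than that filter, DESeq2 size factors and left-out libraries were chosen after seeing the data. In females DESeq2 called 195 and equal depth 178 genes, against 370, and for the difference between the sexes they called 43 and 16. At equal depth Apoh in males was at 0.0020 on the log2 scale. The cause was not tested. DESeq2 size factors, scaling without the members, DESeq2, voom and the main transcript alone changed the call of no member over all livers.

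Leaving out each library in turn gave 154 to 294 genes between the titles, 125 to 217 between the sexes, 31 to 127 in males, 133 to 371 in females and 8 to 45 for the difference between the sexes. The lowest count between the titles came without Y4, and Y3 gave 176. The lone animal that such a fit leaves in a group of a sex is assumed to vary like the others. The difference in the share of reads in the members was -0.382 percentage points, and -0.511 to -0.166 without 1 library. Transcript use and read length called 0 members in each alternative, in tests that made no call on any gene and so say nothing about stability. The signs of several folds near 0 depended on 1 library. Between females and males the log2 folds ran from -0.049 to 0.099 for Apoa2, from -0.058 to 0.37 for Apoa4 and from -0.015 to 0.046 for Apoc1, which was -0.0059 at equal depth. In males they ran from -0.42 to 0.031 for Apoa1, -0.13 to 0.065 for Apoa2, -0.52 to 0.62 for Apoa4, -0.18 to 0.31 for Apoa5, -0.12 to 0.052 for Apoc3 and -0.15 to 0.12 for Apoh. In females they ran from -0.062 to 0.15 for Apob, -0.0097 to 0.070 for Apoc1 and -0.039 to 0.076 for Apoe. The difference between the sexes ran from -1.13 to 0.074 for Apoa4 and -0.22 to 0.046 for Apoh. Read length differences ran from -0.962 to 0.786 nt for Apoa2 and from -1.18 to 0.529 nt for Apoc1, which was 0.618 nt on its main transcript. Relative to the library they ran from -0.0354 to 0.00248 for Apoa4, from -0.00651 to 0.0104 for Apoe and from -0.00903 to 0.00408 for Apoh, and Apoe was at 4.77e-05 on its main transcript.

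Of the list genes, the calls of Rbm47 (adjusted p = 0.0720), Lrp1 (0.147) and Pla2g12b (0.05004) between the titles, and of Tm6sf2 (0.454) between the sexes, did not pass at equal depth. DESeq2 also lost Rbm47 (0.146), Lrp1 (0.126), Pla2g12b (0.0903) and Tm6sf2 (0.0742), the fit without sex lost Lrp1 (0.125) and Pla2g12b (0.0649), the block lost Lrp1 (0.0661) and Pla2g12b (0.0519), and voom lost Tm6sf2 (0.0527). Depth limits the rarest member, Apoa4, which had 55 reads in the shallowest library.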

Other observations

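Among the other apolipoproteins, chosen here after their values were seen, the acute-phase genes Saa1 and Saa2 differed most between livers. Saa1 had 411, 846, 1834 and 2421 CPM in O1 to O4, against 540.02, 758, 47.8 and 112 CPM in Y1 to Y4. The O-titled females held the highest and the Y-titled females the lowest values, and the males of both titles lay between them. Saa1 did not pass (log2 fold change 2.26 ± 1.36, SE; edgeR quasi-likelihood adjusted p = 0.518), nor did Saa2 (2.95 ± 1.41; adjusted p = 0.409). Saa1 and Saa2 are near-identical, so reads may be split between them. Apoc4, which lies beside Apoc1 and Apoe and is a minor lipoprotein component, averaged 1607 ± 79.9 CPM in O-titled livers, against 1895 ± 111 CPM in Y-titled livers (SD, n = 4 each; edgeR adjusted p = 0.261). Clu, also called apolipoprotein J, averaged 1448 ± 102 CPM in O-titled livers, against 1144 ± 253 CPM in Y-titled livers (edgeR adjusted p = 0.120).

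Of the transcription factors, Nr0b2, a bile-acid-induced repressor, averaged 27.2 ± 11.7 CPM in O-titled livers, against 70.4 ± 21.7 CPM in Y-titled livers, and Hnf4a, an activator of many apolipoprotein genes, averaged 218 ± 11.2 CPM in O-titled livers, against 288 ± 37.0 CPM in Y-titled livers (SD, n = 4 each; edgeR adjusted p = 0.0691 and 0.0715). Both were chosen after their values were seen and did not pass.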
